A study of Mus musculus with 9 samples.

Results

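The genes described here encode proteases that cut the extracellular matrix and the tissue inhibitors of metalloproteinases (TIMPs) that hold some of them in check. They were chosen by symbol and not by a cutoff on a measured value, although earlier results of these data were known. They are 4 secreted ADAMTS proteases (Adamts1, Adamts4, Adamts5 and Adamts9), 2 matrix metalloproteinases (Mmp2 and Mmp14), 3 inhibitors (Timp1, Timp2 and Timp3) and Plat, the tissue-type plasminogen activator. These are 10 of the 52025 genes listed, and all 10 passed the filter on low values, an average over 1 FPKM in the libraries of any 1 day, that left 15495 genes to test. FPKM scales the fragments of a gene by its exon length and by the library's depth, so levels can be set side by side between genes.

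RNA was sequenced from Kunming mice at postnatal day (PD) 14, 15 and 16, the days over which the first follicular antra form (initial follicular antrum formation, iFFA), with 3 libraries per day and 9 in all. No treatment, transgene or deletion is named for any group, so age is the only labelled difference. The labels call the tissue ovary and the source granulosa cells, whereas the study's methods describe collected ovaries. The ovaries of a day are described as biologically independent, and whether any library pooled several mice is not given in the sources used here.

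Depth recovered from the FPKM steps ran from 20.4 to 28.7 M mapped fragments per library. Markers of oocytes (Zp3, mean 349 FPKM at PD14), theca and interstitial cells (Hsd3b1), stroma (Col1a1), endothelium (Cdh5, 27.1 FPKM) and red blood cells (Hba-a1) were all present beside those of granulosa cells (Inha), so the libraries held more cell types than the source label names.

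An ADAMTS protease or a matrix metalloproteinase cuts its substrate with a zinc ion held by histidines in the catalytic domain. ADAMTS1, ADAMTS4, ADAMTS5 and ADAMTS9 cleave the large chondroitin sulphate proteoglycans, versican and aggrecan among them, that bind hyaluronan. MMP2 is a gelatinase that is secreted as a proenzyme, and the membrane-anchored MMP14 activates it on the cell surface in a complex with TIMP2. TIMP3 binds to the matrix and inhibits ADAMTS proteases as well as metalloproteinases. In the ovary these enzymes are known from the remodelling of the follicle wall and from ovulation, and versican is a component of follicular fluid.

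The zinc-binding signature is the feature that the 6 metalloproteases have in common, and its coding bases are printed to show how far the members differ there. They were read from GENCODE M21 transcripts (GRCm38, equal to mm10) on the coding strand, 5′ to 3′, and run 33 bases each. Capitals mark the codons of the 3 zinc-binding histidines and of the glutamate beside the first of them.
Adamts1: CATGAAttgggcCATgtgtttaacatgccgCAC
Adamts4: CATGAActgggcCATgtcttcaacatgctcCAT
Adamts5: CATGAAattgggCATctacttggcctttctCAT
Adamts9: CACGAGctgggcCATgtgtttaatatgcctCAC
Mmp2: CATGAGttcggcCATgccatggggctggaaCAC
Mmp14: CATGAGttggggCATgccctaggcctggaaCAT
Adamts1 and Adamts9 shared 28 of the 33 bases and Adamts1 and Adamts4 shared 27. Adamts5 stood farther from its class, with 20 bases in common with Adamts1, 19 with Adamts4 and 18 with Adamts9. Outside its class it shared 22 bases with Mmp14 and 18 with Mmp2. Mmp2 and Mmp14 shared 27. In all 4 ADAMTS genes an intron interrupts these bases. In Adamts5 they span exons 2 and 3 of 8, on the minus strand at chr16:85878015-85887826. In Mmp2 they lie within exon 8 of 13, at chr8:92839279-92839311, and in Mmp14 within exon 5 of 10, at chr14:54437627-54437659, both on the plus strand.

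Adamts5 and Adamts1 are neighbours on the minus strand of chromosome 16. Adamts1 occupies chr16:85793827-85803113 and Adamts5 chr16:85856173-85901828, with 53.1 kb between them. The other members lie apart: Adamts4 at chr1:171250421-171260637, Adamts9 at chr6:92772699-92943492, Mmp2 at chr8:92827291-92853420, Mmp14 at chr14:54431612-54445364, Timp1 at chrX:20870166-20874735, Timp2 at chr11:118301069-118355740, Timp3 at chr10:86300372-86349506 and Plat at chr8:22757727-22782844. These positions are those of GENCODE M21 on GRCm38.

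Averaged over the 9 libraries, Mmp2 was at 81.8 FPKM, above 96.5% of the genes tested. Mmp14 at 58.3 and Timp2 at 57.0 FPKM came next and did not differ beyond their spread, since Mmp14 was the higher in 6 of 9 libraries and their ranges overlapped on every day. Timp1 at 19.8 FPKM, Timp3 at 12.8 and Plat at 7.91 followed, and each of these steps held in all 9 libraries. The ADAMTS genes were the lowest, with Adamts9 at 5.81 and Adamts1 at 5.55 FPKM (Adamts9 the higher in 7 of 9 libraries), then Adamts5 at 3.42 and Adamts4 at 2.40. Adamts5 and Adamts4 overlapped at PD14 and PD15 and separated at PD16, when Adamts5 instead overlapped Adamts1.

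**Figure D1:**
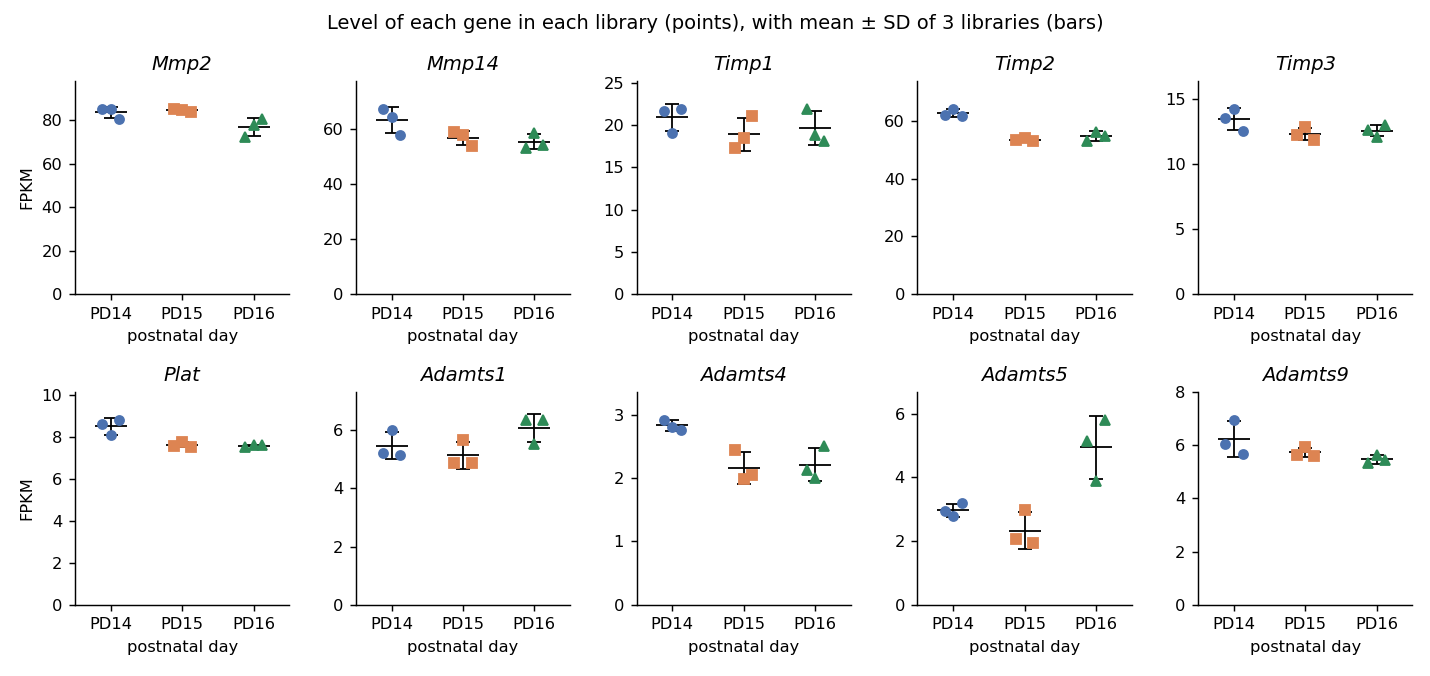
FPKM (vertical axes, from 0, a separate scale for each gene) of the 10 genes in each library by postnatal day; points are libraries, wide bars are means and error bars are SD (n = 3). Adamts5 stands at 3.88 to 5.82 FPKM at PD16, above all PD14 and PD15 libraries, and Timp2 at 61.9 to 64.3 FPKM at PD14, above all later libraries.

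Of the 10 genes, Adamts5 was the only one to pass the test between any 2 days, and it rose from PD15 to PD16. Adamts5, an aggrecanase, was at 2.95, 2.78 and 3.19 FPKM in the PD14 libraries. The PD15 libraries held 2.07, 2.99 and 1.93 FPKM and the PD16 libraries 5.14, 3.88 and 5.82 FPKM. Every PD16 library was above every earlier one, while PD14 and PD15 overlapped because of PD15 replicate 2.

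Mean Adamts5 was 2.98 ± 0.205 FPKM at PD14, 2.33 ± 0.572 at PD15 and 4.94 ± 0.986 at PD16 (SD, n = 3), a 2.12-fold rise in FPKM from PD15 to PD16. On the log2(FPKM + 1) scale, on which low genes show smaller changes, this difference was 0.84 (SE 0.14, 95% interval 0.51 to 1.16), with a limma adjusted p = 0.0439. From PD14 to PD16 the difference was 0.57 (SE 0.14, adjusted p = 0.0586, limma), and from PD14 to PD15 it was -0.27 (adjusted p = 0.424). The limma F test among the 3 days gave an adjusted p = 0.0383. The exact permutation test of the day means, not adjusted over the members, gave p = 0.0107, where 0.00357 is the smallest p that 280 groupings allow. The call was close to the threshold. It was lost in 7 of 9 fits that left out 1 library, with adjusted p between 0.0384 and 0.138, and held only without PD15 replicate 2 or PD16 replicate 2. The F call was lost in the same 7 fits, with adjusted p between 0.0323 and 0.115.

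In PD16 against PD15, 0.432% of all genes tested were called higher and 0.297% lower, against 1 and 0 of the 10 members. In PD15 against PD14 the shares of all genes were 0.336% higher and 0.342% lower, and no member was called. In PD16 against PD14 they were 2.36% and 1.89%, again with no member called. The F test called 3.03% of all genes and Adamts5 alone among the members. At an unadjusted limma p under 0.05, 3 members were lower at PD15 and 4 lower and 1 higher at PD16, each against PD14, and 2 were higher at PD16 against PD15. That threshold took in 14.7%, 22.8% and 14.1% of all genes in these 3 comparisons.

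**Figure D2:**
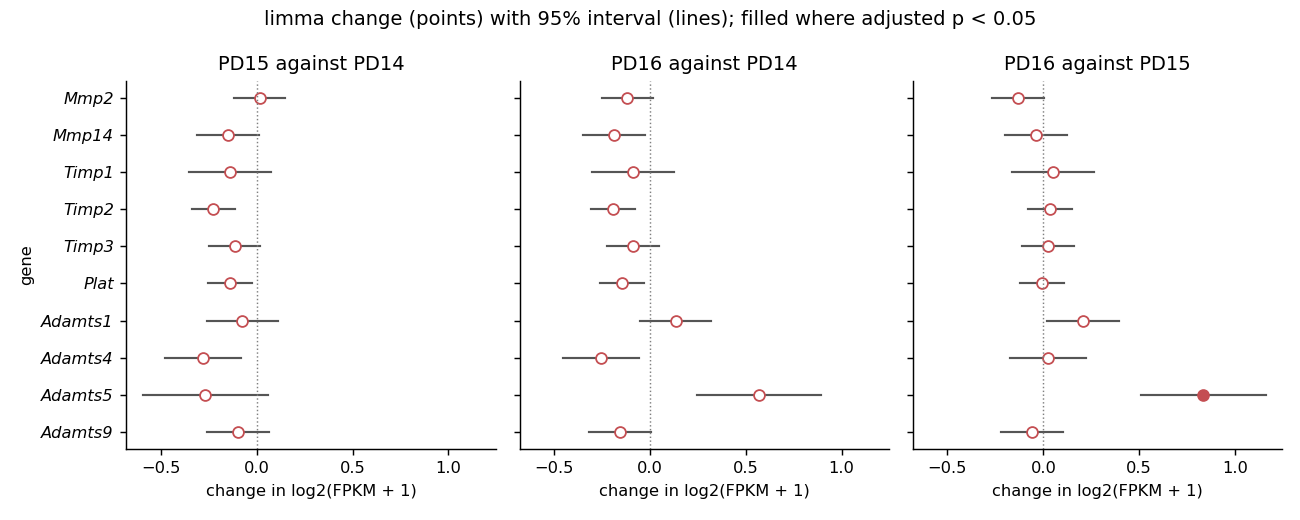
Change in log2(FPKM + 1) between days (horizontal axis) for the 10 genes, as limma points with 95% intervals, in 3 panels for the 3 pairs of days; a filled point marks an adjusted p under 0.05. Only Adamts5 at PD16 against PD15 is filled, at 0.84, and most points against PD14 lie to the left of 0.

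The other 3 ADAMTS genes were not called in any comparison. Adamts1, which the luteinizing hormone surge induces in granulosa cells before ovulation, was at 5.23, 5.99 and 5.15 FPKM at PD14, 4.88, 5.66 and 4.86 at PD15, and 6.36, 5.52 and 6.36 at PD16. The days overlapped, and the difference from PD15 to PD16 was 0.21 (SE 0.08) on the log2 scale with a limma adjusted p = 0.291. Adamts4, the other aggrecanase, was at 2.93, 2.81 and 2.77 FPKM at PD14, 2.45, 1.98 and 2.06 at PD15, and 2.13, 2.01 and 2.50 at PD16.

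All later Adamts4 libraries were below all PD14 libraries. Its mean differed from PD14 by -23.66% at PD15 and by -21.92% at PD16, and the limma differences were -0.28 (SE 0.09, adjusted p = 0.189) and -0.26 (SE 0.09, adjusted p = 0.124). Adamts4 rests on 219 to 345 fragments per library, so counting alone gives a coefficient of variation of up to 6.76%.

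Adamts9, a versican-cleaving protease, was at 6.06, 6.97 and 5.66 FPKM at PD14, 5.65, 5.93 and 5.61 at PD15, and 5.33, 5.64 and 5.44 at PD16. The PD16 libraries lay below all PD14 libraries by a narrow margin, 5.64 against 5.66 FPKM, and the limma difference was -0.16 (SE 0.07, adjusted p = 0.228). It shares 1381 exon bases with A730049H05Rik on the opposite strand, which was below 1 FPKM throughout, and whether the counting used strand is not given in the sources used here.

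Adamts1 and Adamts5, the neighbours on chromosome 16, were compared across the libraries. Their log2(FPKM + 1) values gave Pearson's r = 0.848 and Spearman's rho = 0.75 over 9 libraries. This r was the highest of the 45 pairs of members, but the pair was not the highest by the other measures, since Timp2 and Plat reached a rho of 0.883. Of deviations from the day means r was 0.675, and it was 0.597 without the 2 libraries farthest from the median of Adamts1. Adamts1 and Timp3 had a higher r of deviations, 0.845, and Timp2 and Plat a higher r without 2 libraries, 0.926. In PD15 and PD16 the replicate 2 library stood apart from the other two for both genes, higher at PD15 and lower at PD16. The points share library, day and depth, so this is given as a description with no test.

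**Figure D3:**
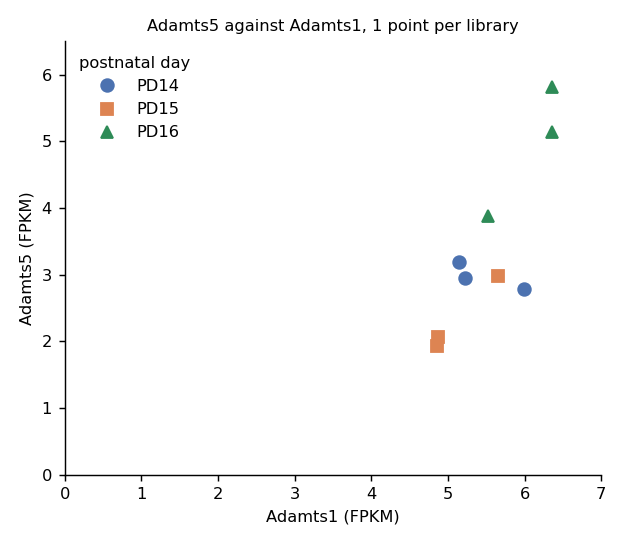
Adamts5 (vertical axis, FPKM) against Adamts1 (horizontal axis, FPKM), 1 point per library, with circles for PD14, squares for PD15 and triangles for PD16. The 2 libraries highest in both genes are PD16 replicates 1 and 3, at 5.14 and 5.82 FPKM of Adamts5.

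Promoter windows of 250 bases before to 50 after the start site were found for 6 of the 10 members in the RefSeq table (GRCm38.p6). Adamts5 was not among them. All 6 held a GC box (GGGCGG on either strand), as did 35.7% of the 32851 windows in the table. Only Adamts1 held the TATA box letters TATAAA, which 13.6% of all windows hold, and Mmp14, Timp1 and Timp2 held a CAAT box (CCAAT), found in 37.4%. None of the 6 held TGANTCA, the AP-1 letters, found in 7.81% of windows. The motifs were sought on both strands, a match is not evidence of binding, and no match says only that the letters are not in this window. The window of Adamts1 is printed as that of the chromosome 16 neighbour of Adamts5, and the window of Timp2 as that of the inhibitor farthest below its PD14 level. Both lie on the minus strand and are written 5′ to 3′, with GC, TATA and CAAT boxes in capitals.
Adamts1, chr16:85803064-85803363: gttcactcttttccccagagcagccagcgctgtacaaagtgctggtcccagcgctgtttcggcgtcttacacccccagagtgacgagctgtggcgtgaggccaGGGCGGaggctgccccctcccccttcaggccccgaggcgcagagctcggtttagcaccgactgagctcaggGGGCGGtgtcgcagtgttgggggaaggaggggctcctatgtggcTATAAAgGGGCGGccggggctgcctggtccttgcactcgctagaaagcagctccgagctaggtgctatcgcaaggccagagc
Timp2, chr11:118355362-118355661: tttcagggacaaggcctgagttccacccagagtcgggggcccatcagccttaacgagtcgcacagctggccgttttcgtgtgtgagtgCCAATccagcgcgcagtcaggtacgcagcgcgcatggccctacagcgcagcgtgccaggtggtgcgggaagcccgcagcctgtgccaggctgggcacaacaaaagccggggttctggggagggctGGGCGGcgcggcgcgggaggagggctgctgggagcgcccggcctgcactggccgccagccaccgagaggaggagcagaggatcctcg
In Adamts1 the TATA box starts 32 bases before the start site and the nearest GC box 25 bases before it. In Timp2 the GC box starts 37 bases before the start site.

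The 2 matrix metalloproteinases were the most abundant proteases of the group, and neither was called. Mmp2, gelatinase A, was at 85.3, 85.2 and 80.7 FPKM at PD14, 85.1, 84.9 and 83.7 at PD15, and 72.6, 77.9 and 80.8 at PD16. The PD16 libraries lay below all PD15 libraries and overlapped PD14. The limma difference from PD15 to PD16 was -0.13 (SE 0.06, adjusted p = 0.357), and its interval, -0.27 to 0.00, excludes a larger fall on the log2 scale.

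Mmp14, the membrane-type activator of MMP2, was at 67.2, 64.2 and 57.8 FPKM at PD14, 58.6, 57.7 and 53.8 at PD15, and 53.1, 58.3 and 54.2 at PD16. The PD14 range overlapped both later ranges through its replicate 3. Its mean differed from PD14 by -12.5% at PD16, with a limma difference of -0.19 (SE 0.07, adjusted p = 0.160).

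Timp2 had the steadiest pattern among the inhibitors, with all 6 later libraries below all 3 PD14 libraries. Timp2, which inhibits MMP2 and also takes part in its activation by MMP14, was at 62.1, 64.3 and 61.9 FPKM at PD14, 53.4, 54.2 and 52.9 at PD15, and 53.1, 56.4 and 55.0 at PD16. Its mean differed from PD14 by -14.75% at PD15 and by -12.66% at PD16. The limma differences were -0.23 (SE 0.05, adjusted p = 0.0886) and -0.19 (SE 0.05, adjusted p = 0.0647), and the F test gave an adjusted p = 0.0628. None of these passed the threshold of 0.05, while the exact permutation test of this gene alone gave p = 0.0107. In bulk RNA, fewer cells of a type and less RNA per cell cannot be told apart.

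Timp3, the matrix-bound inhibitor of ADAMTS proteases, was at 13.6, 14.3 and 12.6 FPKM at PD14, 12.3, 12.9 and 11.9 at PD15, and 12.6, 12.1 and 13.0 at PD16. The days overlapped, and the larger of its limma differences from PD14 was -0.12 at PD15 (SE 0.06, adjusted p = 0.408). All of Timp3 lies within the span of Syn3, a synapsin gene on the opposite strand at 0.113 to 0.163 FPKM. Timp1, a broad inhibitor of secreted metalloproteinases, was at 21.7, 19.1 and 21.9 FPKM at PD14, 17.3, 18.5 and 21.1 at PD15, and 21.9, 18.9 and 18.2 at PD16. Its libraries overlapped on all days, with an exact permutation p = 0.343, and its 380 to 538 fragments per library give a counting coefficient of variation of up to 5.13%. Timp4, the remaining family member, did not pass the filter on low values.

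Plat, the activator that turns plasminogen into plasmin, was at 8.60, 8.08 and 8.83 FPKM at PD14, 7.58, 7.78 and 7.54 at PD15, and 7.55, 7.62 and 7.60 at PD16. All later libraries were below all PD14 libraries. The limma differences from PD14 were -0.14 at PD15 (SE 0.05, adjusted p = 0.253) and -0.15 at PD16 (SE 0.05, adjusted p = 0.132). The exact permutation test of this gene alone, not adjusted over the members, gave p = 0.0321.

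Counted over the group, 9 of 10 members had a lower fitted level at PD15 than at PD14 and 8 of 10 at PD16. The median change was -0.14 and -0.13 on the log2 scale, beside 0.01 for all genes tested in both comparisons, of which 48.1% and 47.8% were lower. From PD15 to PD16 the members divided into 6 higher and 4 lower, with a median of 0.02. Libraries did not overlap for 3 members lower at PD15 than at PD14 (Adamts4, Timp2 and Plat) and for none higher. The same held for 10.2% of all genes lower and 10.4% higher. At PD16 against PD14, 4 members were lower without overlap (Adamts4, Adamts9, Timp2 and Plat) and 1 higher (Adamts5), against 13.5% and 15.0% of all genes. At PD16 against PD15, Mmp2 was lower and Adamts5 higher without overlap, against 9.73% and 9.85% of all genes. Both comparisons with PD14 share its 3 libraries.

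Markers of other cells differed between the same days. All 7 endothelial markers had lower fitted values than at PD14 on both later days, with a summed level of 75.0 to 82.0 FPKM at PD14, 69.4 to 73.1 at PD15 and 68.3 to 71.2 at PD16, and Tie1 was called lower at PD16 (-0.25, adjusted p = 0.0458, limma). All 5 red blood cell markers had lower fitted values too, and their sum was 105 to 147 FPKM at PD14, 46.4 to 63.2 at PD15 and 60.8 to 116 at PD16. Hba-a1 was called lower at PD15 (-1.35, adjusted p = 0.0381, limma). The smooth muscle and pericyte list was mixed at PD16 against PD14, with 5 of 7 fitted values higher, 2 lower and a median of 0.19. In it Cnn1, a smooth muscle gene, rose by 0.61 (adjusted p = 0.0348, limma) and Rgs5, a pericyte marker, fell by 0.62 (adjusted p = 0.0294).

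The oocyte markers had falling fitted values from PD15 to PD16, the step in which Adamts5 rose, although Bmp15 differed by -0.0041. Every one of the 9 had a fitted value that was above PD14 at PD15 and below PD15 at PD16, and their sum was 1145 to 1420, 1507 to 1630 and 1103 to 1176 FPKM on the 3 days. Nlrp5 was called in both steps and Zp2 in the second. Bmp15 was called higher at PD16 against PD14 (0.39, adjusted p = 0.0331, limma), a comparison in which 6 of the 9 had lower fitted values. All 7 smooth muscle and pericyte markers had higher fitted values at PD16 than at PD15, and none of these was called in that step. Their sum was 286 to 364 FPKM at PD15 and 325 to 424 at PD16. The theca and interstitial markers summed to 1609 to 2231, 1182 to 1756 and 1211 to 1622 FPKM, and the stromal markers to 352 to 400, 297 to 367 and 360 to 373. Most of the theca and interstitial sum is Hsd3b1, with means of 1785, 1291 and 1273 FPKM. Of the 7 genes in that list, 1 had a higher fitted value and 6 a lower one at PD15 against PD14. The split was 3 higher and 4 lower at PD16 against PD14, and 5 higher and 2 lower at PD16 against PD15. Granulosa cell markers divided evenly at PD15 against PD14, 4 higher and 4 lower, and only Amh was called, higher at PD16. Of the surface epithelium list, Krt8 and Krt19 were called lower at PD16 against PD14. In that comparison the 5 tested genes of the list were mixed, with 2 fitted values higher, 3 lower and a median of -0.09. Among the macrophage and leukocyte markers none was called, and Ptprc and Itgam did not pass the filter. Of the oviduct markers only Rsph1 did, and it was not called. The part of these cell types in the levels of the members was not tested.

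Whether protease and inhibitor levels kept step was asked of 3 ratios taken within each library. The ratio of Mmp2 to Timp2 was 1.37, 1.33 and 1.30 at PD14, 1.60, 1.57 and 1.58 at PD15, and 1.37, 1.38 and 1.47 at PD16. The PD15 libraries were above all others, and PD14 and PD16 overlapped. Between PD14 and PD15 the difference lay in Timp2, with means of 62.8 and 53.5 FPKM, while Mmp2 had means of 83.7 and 84.6. Neither gene was itself called. The day means were 1.33 ± 0.0362, 1.58 ± 0.0138 and 1.41 ± 0.0559 (SD, n = 3), and the exact permutation test among days, one-sided on the F statistic, gave p = 0.00714, or 0.0107 adjusted over the 3 ratios.

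The summed ADAMTS level over Timp3 was 1.26, 1.30 and 1.33 at PD14, 1.23, 1.29 and 1.21 at PD15, and 1.50, 1.40 and 1.55 at PD16. All PD16 libraries lay above all others. The same exact test gave p = 0.00714, adjusted to 0.0107. The separation depended on Adamts5: in a sum without it, tried after seeing the data, the ratio was 1.05, 1.10 and 1.08 at PD14, 1.06, 1.06 and 1.05 at PD15, and 1.10, 1.08 and 1.10 at PD16. PD14 and PD16 then overlapped, and the exact p was 0.143, or 0.214 adjusted over the 3 ratios. The ratio of Mmp14 to Timp2 was 1.00 ± 0.0742, 1.06 ± 0.0415 and 1.01 ± 0.0250 on the 3 days, with overlap throughout and an exact p = 0.411, and its libraries ran from 0.934 to 1.10.

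**Figure D4:**
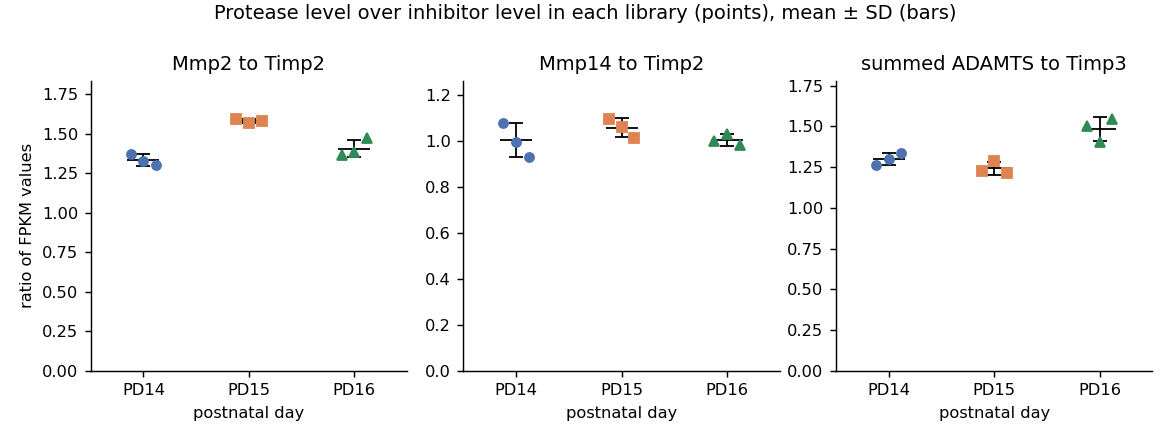
Ratio of protease FPKM to inhibitor FPKM (vertical axes, from 0) in each library by postnatal day, for Mmp2 to Timp2, Mmp14 to Timp2 and the 4 ADAMTS genes summed to Timp3; points are libraries and bars are means with SD (n = 3). The first ratio is highest at PD15, 1.57 to 1.60, and the last at PD16, 1.40 to 1.55.

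Beyond the 10 members, 80 related genes in 10 lists were examined, of which 46 passed the filter. None was called in PD15 against PD14 or in PD16 against PD15. In PD16 against PD14, 5 of the 46 were called higher and 2 lower by limma, beside 2.36% and 1.89% of all genes tested. All 7 calls were lost in some of the 9 fits that left out 1 library, with Adamtsl2 and Mmp15 held in 6 of them and Adam17 in 2, and their signs did not turn. The medians over the 46 were -0.03, -0.04 and 0.02 in the 3 comparisons, in the order PD15 against PD14, PD16 against PD14 and PD16 against PD15, beside 0.01 for all genes tested in each.

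Among the 9 other ADAMTS proteases tested, 2 rose by PD16. Adamts2, a procollagen N-proteinase, had means of 32.9 ± 2.56, 37.6 ± 1.88 and 41.7 ± 0.741 FPKM on the 3 days (SD, n = 3), a limma difference of 0.33 from PD14 to PD16 (adjusted p = 0.0294). Adamts6 went from 3.34 ± 0.735 FPKM to 6.04 ± 0.878 over the same days, a difference of 0.71 (adjusted p = 0.0296). Adamts10, the most abundant gene of this list at 44.4 FPKM at PD14 and 49.6 at PD16, was not called. Of 3 ADAMTS-like proteins, which have no catalytic domain, Adamtsl2 rose from 3.68 ± 0.473 to 6.15 ± 0.734 FPKM (0.61, adjusted p = 0.0236).

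The 6 other matrix metalloproteinases tested all had fitted values below PD14 at PD15, and 2 fell by PD16. Mmp15, a membrane-type enzyme like Mmp14, was at 7.77 ± 0.223 FPKM at PD14 and 5.42 ± 0.624 at PD16, a limma difference of -0.45 (adjusted p = 0.0189). Mmp23 was at 27.8 FPKM at PD14 and 22.6 at PD16 (-0.29, adjusted p = 0.0294). Mmp11, the most abundant, was at 31.4, 26.0 and 31.6 FPKM and was not called. Reck, a membrane-anchored inhibitor of metalloproteinases, was at 9.50, 9.77 and 9.21 FPKM and was not called. Spock2, a testican proteoglycan known for relieving the inhibition of membrane-type enzymes by other testicans, was at 24.5, 21.5 and 22.2 FPKM and was not called.

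None of the 4 tested genes of the plasminogen system was called. Serpine2, an inhibitor of plasminogen activators, was the most abundant at 91.2, 91.5 and 104 FPKM. Plau, the urokinase-type activator, was at 33.7, 39.7 and 32.1 FPKM, several times the level of Plat. Among the 7 ADAM sheddases, Adam17, a target of TIMP3 inhibition, rose from 18.6 ± 1.17 to 23.5 ± 1.54 FPKM by PD16 (0.32, adjusted p = 0.0363, limma), and Adam10 was the most abundant at 49.8 to 53.3 FPKM.

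None of the 4 proprotein convertases, which cut the prodomains of many metalloproteases, was called, with Pcsk6 the most abundant at 62.8, 65.5 and 50.9 FPKM. Lrp1, the endocytic receptor that clears ADAMTS proteases, TIMPs and tissue-type plasminogen activator, was at 58.6 ± 13.5, 72.9 ± 7.18 and 74.9 ± 6.61 FPKM and was not called (0.37 from PD14 to PD16, adjusted p = 0.172).

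Of 4 substrates and matrix partners tested, Fbln1, which binds versican and is a cofactor of ADAMTS1, rose from 48.5 ± 2.82 FPKM at PD14 to 64.7 ± 5.96 at PD16 (0.40, adjusted p = 0.0294). Vcan, the versican gene, was at 26.9, 30.2 and 28.4 FPKM and was not called. Of the 5 collagens, none was called, and Col3a1 was the most abundant at 186, 156 and 167 FPKM. Adamtsl2, Mmp15 and Fbln1 also passed the F test among days.

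**Figure D5:**
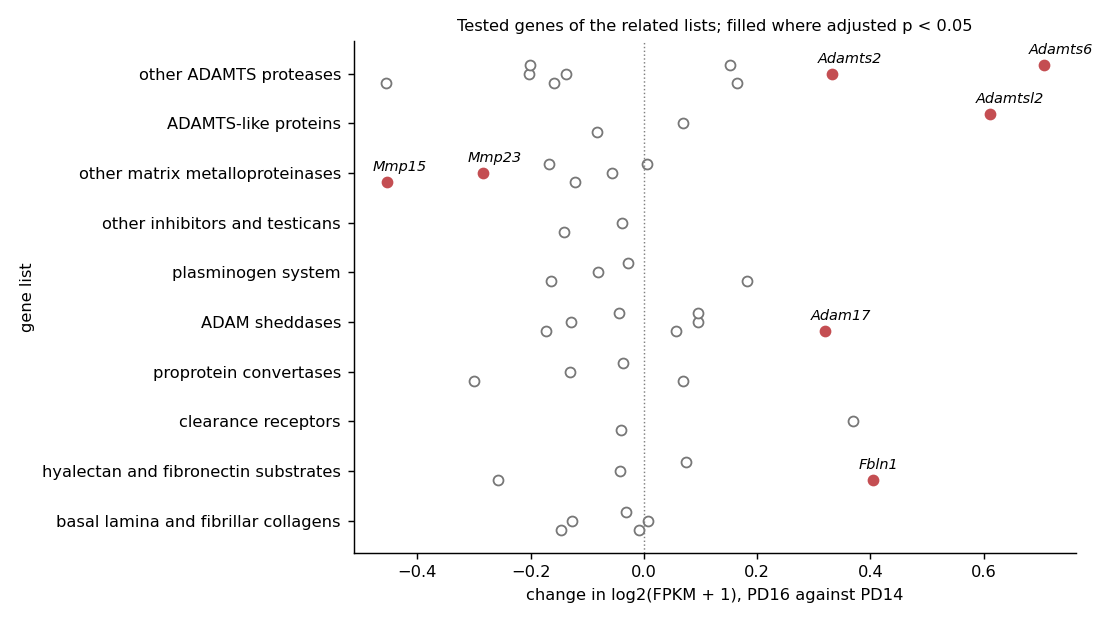
Change in log2(FPKM + 1) from PD14 to PD16 (horizontal axis) for the 46 tested genes of 10 related lists (rows), with filled points where the limma adjusted p is under 0.05; points are spread vertically within a row for legibility only. Adamts6 lies farthest to the right at 0.71 and Mmp15 lowest among the filled points at -0.45.

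The genes most like Adamts5 over the 9 libraries, by Pearson's r on log2(FPKM + 1), included Fos (0.973), a gene listed without a symbol (0.953), Il15ra (0.949) and Zfp36l2 (0.931). Fos, an immediate-early transcription factor gene, was at 1.34, 1.14 and 1.42 FPKM at PD14, 0.685, 1.32 and 0.858 at PD15, and 2.75, 1.98 and 2.47 at PD16. Its PD16 libraries were above all others, and PD15 replicate 2 and PD16 replicate 2 stood toward the other days as they did for Adamts5. Those most like Timp2 were Col26a1 (0.972), Adra2a (0.968), Ppp1r14a (0.963), A430105I19Rik (0.961) and Eno1b (0.954). Each had a lower mean at PD15 and PD16 than at PD14, for Eno1b 14.1, 5.58 and 6.29 FPKM in day order and for Col26a1 8.68, 7.33 and 7.45. These genes were the top of a ranking over all genes tested, so their r is a description.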

How the data were processed

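RNA-Seq libraries of 9 samples at PD14, PD15 and PD16 (3 per day) were analysed. The authors deposited FPKM per gene, 1 table per library, without counts. The submitters' processing notes name HISAT2 2.0.5 and mm10; the counter and annotation release are not given in the sources used here. FPKM were used as deposited, and genes with a mean above 1 on at least 1 day were tested as log2(FPKM + 1) with limma 3.58.1 (R 4.3.3, intensity trend, all 9 libraries in 1 fit, Benjamini-Hochberg adjustment over 15495 genes, threshold 0.05). Single values and ratios were compared by exact permutation over 280 groupings, and the p of a single gene was not adjusted over the members. With GENCODE M21 exon lengths, 94.3% to 94.7% of values under 20 fragments were whole within 0.02 fragments, which gave depth and fragments per gene. Fragments of Adamts5 and Mmp14 were not whole and are not given.

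The members and gene lists were chosen with earlier results of these data known. Named genes were the members, related genes and markers called in any contrast, the most abundant gene of each related list, and the 5 genes most like the 2 members with the smallest F p, of which 1 is not reported here. Plau, Vcan, Reck, Timp4, the other markers named and the genes overlapping a member fall outside this rule and were chosen after their values were seen. The limma step was tested on simulated data. Alternatives covered pseudocount, filters, scaling, trend, replicate block, fits on 2 days and leaving out libraries.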

Additional observations from a re-analysis of the deposited data

How the results depend on the processing

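The number of genes called was 105 for PD15 against PD14, 659 for PD16 against PD14, 113 for PD16 against PD15 and 469 in the F test. With no filter on low values these became 29, 172, 24 and 95, and with only the 2 days compared in the fit the first 2 became 47 and 320. Leaving out 1 library gave 3 to 92, 92 to 660, 14 to 125 and 100 to 354. Same-numbered libraries had correlations of deviations from -0.214 to 0.159, and whether the numbers pair the samples is not given in the sources used here. With the replicate number as a block the counts were 24, 227, 56 and 127. For Adamts5, PD16 against PD15 was called in 5 of 16 settings. Its adjusted p was 0.131 with no filter, 0.0514 without the trend, 0.0751 with only 2 days, and 0.0973 with the replicate block. The F test called Adamts5 in 6 of 15 settings and in 2 of 9 fits without 1 library (adjusted p 0.0323 to 0.115), and lost it with no filter (0.113) and with the block (0.0907). Leaving Adamts5 out of the ADAMTS sum was an alternative chosen after seeing the data. The log2 ratio to Timp3 then differed by -0.0297 at PD15 and 0.021 at PD16 against PD14, and by 0.0506 at PD16 against PD15. The exact permutation p was 0.143, or 0.214 adjusted over the 3 ratios, and no longer passed. Adamts5 itself was called at PD16 against PD14 in 3 of 16 settings, one of them FPKM above 1 in all 9 libraries (0.0494). No other member was called in any setting. Of the 7 related genes called at PD16 against PD14, the call held in 12 of 16 settings for Adamtsl2 and Mmp15, 9 for Adamts6, 8 for Adamts2, 7 for Mmp23 and Fbln1 and 6 for Adam17, and none held with no filter, where adjusted p ran from 0.0513 to 0.0845; with the block only Adamtsl2 and Mmp15 held. Signs of member changes turned only in uncalled ones when 1 library was left out: Mmp2 at PD15 against PD14 (-0.0113 to 0.0285), and, at PD16 against PD15, Timp1 (-0.0283 to 0.126), Adamts4 (-0.0414 to 0.0864) and Plat (-0.0153 to 0.0044). The Mmp14 to Timp2 ratio, which did not pass its test, also changed sign at PD16 against PD14 (-0.0474 to 0.0589). The cause was not tested. Depth limits Adamts4 and Timp1 most.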
